A study of Mus musculus with 48 samples.

Results

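The p53 pathway was followed here through 10 genes of the 50600 listed in the counts: Trp53, which encodes p53, and 9 genes that regulate p53 or are transcribed under its control, namely Mdm2, Mdm4, Cdkn1a, Ccng1, Phlda3, Zmat3, Trp53inp1, Gdf15 and Sesn1. They were chosen by symbol as pathway genes relevant to nucleolar stress and matched to the Ensembl gene identifiers of the counts, and all 10 passed the filter on low counts that kept 13889 genes. The RNAs came from mPDAC, a line of mouse pancreatic ductal adenocarcinoma with the genetic background FVB/N x C57BL6. They were left non-treated (NT) or exposed for 48 h to 50 µM N6L, a pseudopeptide antagonist of nucleolin. Samples numbered 1, 2 and 4 for NT and 1, 2 and 3 for N6L each gave a cytoplasmic and a polysomal library, 12 in all. They are called cultures below, although the labels number them without saying that they were grown separately, so that p-values measure the spread between these samples, which may be technical. The age label reads 8-week-old, the line is 1 model of the disease, and its p53 genotype is not given in the sources used here.

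p53 is a transcription factor that halts the cell cycle, starts DNA repair or triggers cell death. In unstressed cells it is kept low by the ubiquitin ligase Mdm2, helped by its relative Mdm4, and because Mdm2 is itself a p53 target the pair forms a feedback loop. When ribosome production in the nucleolus is disturbed, free ribosomal proteins such as Rpl5 and Rpl11 bind Mdm2 and p53 accumulates, mostly through the stability of the protein, which RNA counts do not measure.

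p53 binds DNA at paired copies of a decamer. This decamer was searched in the RefSeq promoters of build GRCm38.p6, each a window from 250 bases before to 50 bases after an annotated start, to show what the members carry near their starts. Of the 10 members, 8 had an entry, with 12 windows, and those without one were Zmat3 and Trp53inp1. The decamer is its own reverse complement, so a search of one strand covers both. It stood without a mismatch in 5 of the 12 member windows and in 8.4% of the 32851 windows of all genes. A pair of decamers separated by at most 13 bases, with at most 2 mismatches outside the central C and G, stood in 3 member windows, against 4.1% of all windows. The sites of the 5 member windows are printed below 5′ to 3′ on the strand of the gene, with 10 flanking bases on each side. Capitals mark every decamer without a mismatch and every decamer of a pair.
Cdkn1a, chr17:29090896-29090957, plus strand: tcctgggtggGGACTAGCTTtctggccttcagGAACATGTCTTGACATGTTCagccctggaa
Ccng1, chr11:40755452-40755496, minus strand: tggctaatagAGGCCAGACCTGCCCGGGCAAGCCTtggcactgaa
Sesn1, chr10:41887243-41887300, plus strand: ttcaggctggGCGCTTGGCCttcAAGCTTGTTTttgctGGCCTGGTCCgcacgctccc
Mdm2, chr10:117710925-117710954, minus strand: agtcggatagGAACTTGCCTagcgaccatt
Trp53, chr11:69580274-69580303, plus strand: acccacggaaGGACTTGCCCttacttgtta
Each of the 3 windows with a pair held 2 pairs that share a decamer. In Cdkn1a, at the upstream of its 2 annotated starts, 1 pair began 73 bases before the start with 0 mismatches and a gap of 12 bases, and the other began 51 bases before it with 1 mismatch and a gap of 0. The window at its other start held no such decamer or pair. The pairs of Ccng1 had 1 mismatch with a gap of 0 and 2 mismatches with a gap of 5 bases, and those of Sesn1, at the downstream of its 2 annotated starts, had 2 mismatches each with gaps of 3 and 5 bases. The single decamer of Mdm2 lay 186 bases and that of Trp53 75 bases before the start. The intronic promoter of Mdm2, known as its p53-responsive promoter, is outside this window, and a letter match is a description, not a bound site.

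Library totals ranged from 19519911 to 44972333 counts, and the 12 libraries were scaled by TMM to CPM, the share of a library that falls on a gene. Members had between 97 counts (Sesn1, lowest library) and 12689 counts (Trp53, highest library). Of 8 ductal markers, 7 passed the filter on low counts, and the summed level was 6520 to 10700 CPM, mostly from Krt8, Krt18 and Krt19. The ductal marker that did not pass was Epcam, at a mean of 0.116 CPM. The 5 acinar markers summed to at most 0.123 CPM in any library. The summed fibroblast, endothelial and leukocyte markers did not exceed 1.22, 1.15 and 3.71 CPM. The polysome-to-cytoplasm ratio was widest in N6L culture 3, where the median absolute log2 ratio over all genes was 0.74, against 0.25 to 0.46 in the other 5 cultures.

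Per kilobase of exon, Trp53 was the most abundant member in all 4 groups. The length joins the exons of all transcripts of a gene. For Mdm4 it is 14798 bases, against 7105 bases in its longest transcript, so its place in the order below depends on this choice. In NT cytoplasm the levels were 87.0 CPM per kb for Trp53, 48.6 for Phlda3, 34.7 for Cdkn1a, 15.5 for Ccng1, 7.80 for Mdm2, 6.30 for Gdf15, 5.07 for Trp53inp1, 3.90 for Mdm4, 1.62 for Zmat3 and 1.39 for Sesn1. Trp53 lay above 95.3% of the genes tested on this scale, Cdkn1a above 87.4% and Sesn1 above 28.4%. Neighbours in this order whose ranges over the 3 NT cultures overlapped were Mdm2 (6.11 to 8.95) and Gdf15 (5.42 to 7.29), Gdf15 and Trp53inp1 (2.51 to 6.79), Trp53inp1 and Mdm4 (2.95 to 4.60), and Zmat3 (1.51 to 1.68) and Sesn1 (1.22 to 1.54). With N6L, Sesn1 moved from 1.39 to 3.26 CPM per kb in the cytoplasm and passed Zmat3, which stood at 1.63.

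The first comparison asked whether N6L changed the cytoplasmic mRNA of the pathway. Sesn1 rose 2.35-fold and Mdm2 1.86-fold, and Gdf15 fell to 0.553 of its NT level, the 3 members of 10 that passed an FDR of 0.05 (edgeR quasi-likelihood test with Benjamini-Hochberg adjustment over all 13889 genes). Over all genes, 28.3% passed in this comparison, 14.5% higher and 13.8% lower. The share of members called, 3 of 10, was therefore near the background. Cdkn1a, the classical p53 target, differed by a log2 fold change of 0.04 with a 95% interval of -0.31 to 0.39. Levels are relative to the library, so that fewer transcripts per cell and a changed mix of cells cannot be told apart. Cytoplasmic log2 fold changes also moved with transcript length, with a Pearson correlation of 0.43 with log2 length across 13867 genes. With GC content the correlation was -0.17. Both describe genes that share their libraries, and the cause was not tested.

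Sesn1 encodes a sestrin, a stress-induced protein that restrains mTORC1 when leucine is lacking. Its level in NT cytoplasm was 5.59, 6.13 and 4.86 CPM in cultures 1, 2 and 4, and in N6L cytoplasm 11.4, 14.1 and 13.4 CPM in cultures 1, 2 and 3. Every N6L value lay above every NT value. The log2 fold change was 1.23 ± 0.20 (SE, FDR = 0.00181 by edgeR), and it stayed under the limit in every alternative fit, including the removal of each culture in turn (log2 1.12 to 1.32) and an offset for transcript length and GC content (log2 1.02, FDR = 0.000999).

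Mdm2 stood at 42.4, 45.5 and 31.0 CPM in NT cytoplasm and at 64.9, 79.9 and 76.6 CPM in N6L cytoplasm. The groups did not overlap, and the log2 fold change was 0.90 ± 0.24 (SE, FDR = 0.0153 by edgeR). Without NT culture 4, the lowest NT library for this gene, the log2 fold change was 0.72 with an FDR of 0.0627, and without N6L culture 2 it was 0.79 with an FDR of 0.0895. Its partner Mdm4, which binds p53 and blocks its activity, ranged from 43.7 to 68.1 CPM in NT and from 62.0 to 70.5 CPM in N6L cytoplasm, so that the groups overlapped (log2 0.20, FDR = 0.485). With the length and GC offset this value of Mdm4 turned to -0.29 (FDR = 0.0774).

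Trp53 itself was at 387, 333 and 335 CPM in NT cytoplasm and at 309, 248 and 258 CPM in N6L cytoplasm. All 3 N6L values lay below the NT values, and the log2 difference was -0.37 ± 0.13 (SE), which missed the limit with an FDR of 0.0508 in edgeR. It passed in several alternative fits, among them DESeq2 (log2 -0.41, FDR = 0.00734) and the length and GC offset (log2 -0.46, FDR = 0.00825).

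Gdf15, a secreted stress cytokine of the TGF-beta superfamily, was at 13.5, 10 and 11.5 CPM in NT cytoplasm and at 6.47, 5.43 and 7.48 CPM in N6L cytoplasm. It was the member that fell, by 0.86 ± 0.25 (SE) on the log2 scale with an FDR of 0.0218 in edgeR, and its groups did not overlap. The call was lost without NT culture 1 (FDR = 0.0961), without N6L culture 2 (FDR = 0.108) and with the length and GC offset (log2 -0.52, FDR = 0.0768). Phlda3, whose product competes with Akt for membrane lipids, had 66.3, 62.5 and 98.5 CPM in NT and 49.0, 43.4 and 46.7 CPM in N6L cytoplasm. These values also did not overlap, but the log2 difference of -0.71 ± 0.26 (SE) had an FDR of 0.0563 in edgeR. It passed with DESeq2 (FDR = 0.0268) and stood at -0.28 with the length and GC offset (FDR = 0.0718).

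Trp53inp1 encodes a stress protein that acts in autophagy and assists p53. NT cytoplasm held 44.0, 38.4 and 16.2 CPM and N6L cytoplasm 55.3, 72.1 and 49.0 CPM, which did not overlap although NT culture 4 was far below the other NT cultures. The log2 fold change of 0.84 ± 0.37 (SE) did not pass (FDR = 0.0967 by edgeR). The remaining targets stayed close to their NT levels. Cdkn1a, which encodes the cyclin-dependent kinase inhibitor p21, was at 131, 123 and 117 CPM in NT and 125, 126 and 131 CPM in N6L cytoplasm, with overlapping groups. Ccng1 (cyclin G1, which guides a phosphatase to Mdm2) had a log2 difference of 0.04 with a 95% interval of -0.31 to 0.39. Zmat3, an RNA-binding zinc-finger protein, had a log2 difference of 0.01 with an interval of -0.28 to 0.31, although the length and GC offset gave -0.52 (FDR = 0.0201). In all, the NT and N6L cytoplasmic values did not overlap for 6 of the 10 members, 3 higher and 3 lower, and for 54.9% of all genes.

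**Figure D1:**
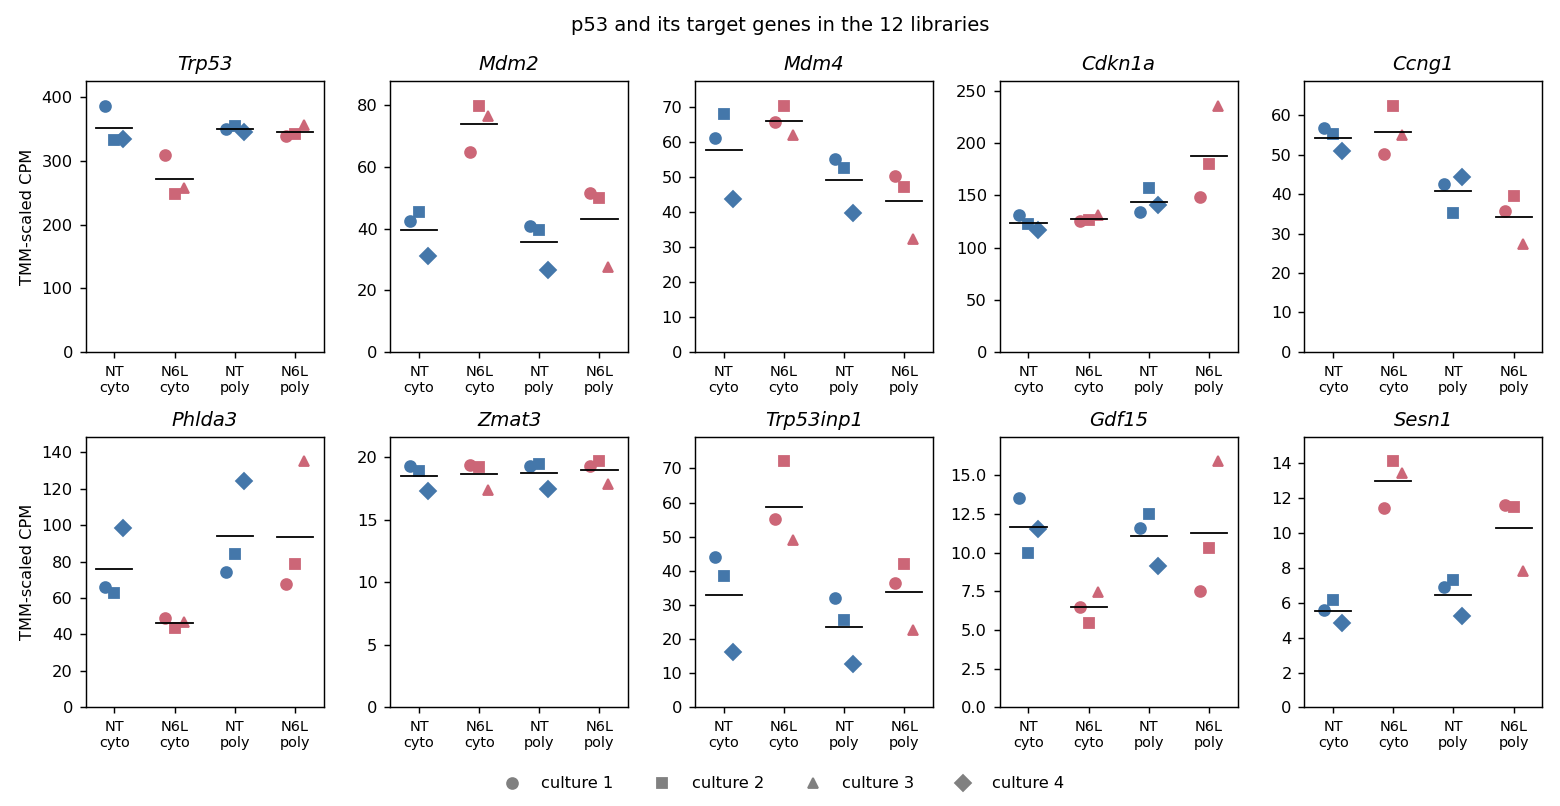
TMM-scaled CPM (vertical axis, starting at 0) of each of the 10 genes in the 12 libraries, by treatment and fraction. Points are single libraries with a symbol for the culture number, blue for NT and red for N6L, and black lines are group means (n = 3). The N6L values of Sesn1 lie above the NT values in both fractions, and those of Cdkn1a in the cytoplasm overlap the NT values.

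The second comparison asked the same of the polysomal fraction, the mRNA that sediments with several ribosomes. Its levels are also relative to the library, so that a change in the total amount of polysomal mRNA is not seen. Sesn1 rose 1.60-fold and was the member that passed the limit, 1 of 10, against 9.67% of all genes (6.01% higher and 3.66% lower). Its values were 6.90, 7.27 and 5.21 CPM in NT and 11.6, 11.5 and 7.81 CPM in N6L polysomes. They did not overlap, which held for 1 of 10 members and for 25.6% of all genes. The log2 fold change of 0.68 ± 0.20 (SE) had an FDR of 0.0478 in edgeR, just under the limit. It kept its direction in all alternative fits (0.56 to 0.84 when each culture was left out), but its FDR was 0.0502 with RLE size factors, 0.0512 with library totals alone and 0.166 when only the 2 groups compared were fitted. Leaving out any culture but N6L culture 3 also ended the call, with FDR values of 0.0706 to 0.239.

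Mdm2 in the polysomes was at 41.0, 39.5 and 26.6 CPM in NT and at 51.7, 49.8 and 27.7 CPM in N6L. N6L culture 3, which had the second-highest cytoplasmic level, was here inside the NT range, and the log2 fold change was 0.27 (FDR = 0.502). Cdkn1a was at 134, 157 and 141 CPM in NT and at 148, 180 and 236 CPM in N6L polysomes. The highest value belonged to N6L culture 3 and the lowest N6L value lay among the NT values. The log2 fold change of 0.38 ± 0.16 (SE) did not pass (FDR = 0.15 by edgeR).

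Trp53 hardly varied in the polysomes, with 345 to 355 CPM in NT and 339 to 357 CPM in N6L (log2 -0.02, 95% interval -0.31 to 0.27). Gdf15 and Phlda3, which were lower in N6L cytoplasm, had log2 differences of 0.02 (FDR = 0.965) and -0.01 (FDR = 0.987) in the polysomes, with intervals of -0.50 to 0.55 and -0.57 to 0.55. In N6L polysomes Gdf15 spread from 7.54 to 15.9 CPM and Phlda3 from 67.5 to 135 CPM, with the highest value of both in culture 3. Trp53inp1 had a log2 difference of 0.53 (FDR = 0.386), Zmat3 of 0.02, Mdm4 of -0.18 and Ccng1 of -0.25 (FDR = 0.36).

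**Figure D2:**
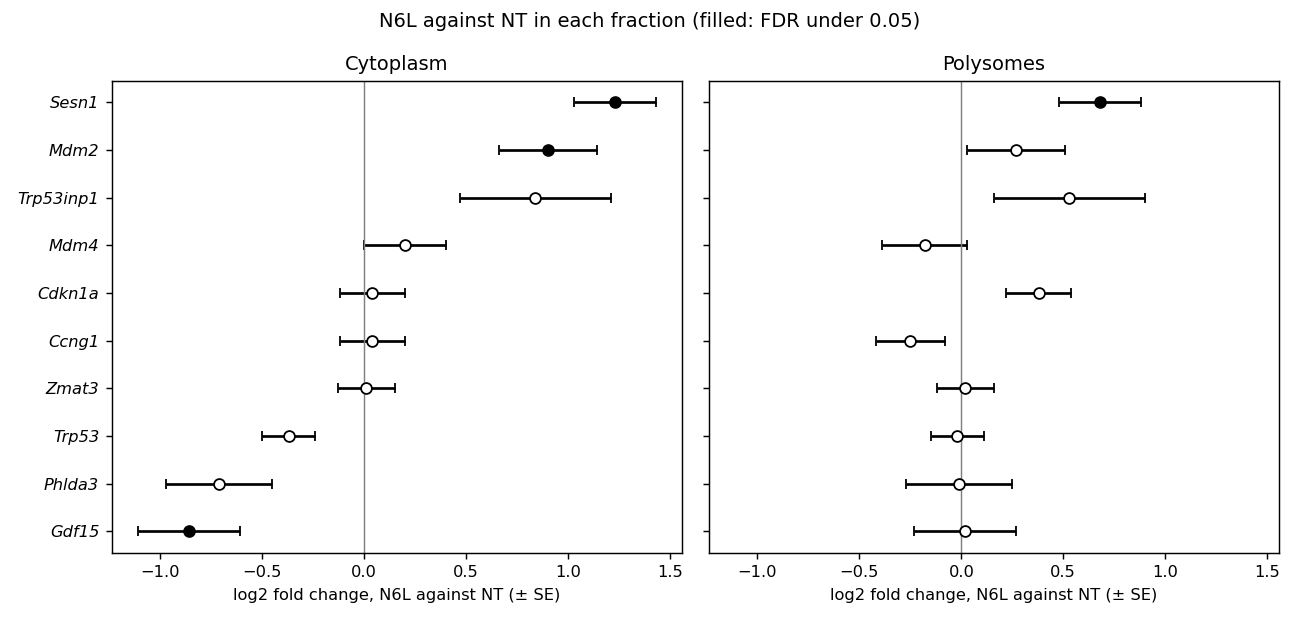
Log2 fold change of N6L against NT (horizontal axis) with its standard error for the 10 genes, in the cytoplasm on the left and the polysomes on the right, with n = 3 libraries in each group. Filled points passed an FDR of 0.05. Sesn1, Mdm2 and Gdf15 are filled in the cytoplasm and Sesn1 in the polysomes.

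Polysomal and cytoplasmic levels were then compared within each treatment, as a measure of how far an mRNA is engaged with several ribosomes relative to other mRNAs. Each library is scaled to its own content, and the median log2 ratio over all genes was 0.03 in both treatments. The ratio therefore does not show a change in total polysomes, and the authors report smaller polysome peaks under N6L. In NT cells, 0 of 10 members passed in edgeR, against 0.209% of all genes, and DESeq2 called 0 members. An unadjusted edgeR p under 0.05 was found for 1 member (Ccng1, log2 -0.42, FDR = 0.308) and for 1855 of all 13889 genes. In N6L-treated cells 6 members passed, against 39.0% of all genes. Phlda3 (log2 1.01 ± 0.26), Gdf15 (0.80 ± 0.25) and Cdkn1a (0.56 ± 0.16) were higher in polysomes than in cytoplasm. Ccng1 (-0.71 ± 0.17), Mdm2 (-0.78 ± 0.24) and Mdm4 (-0.61 ± 0.21) were lower, each with its SE. FDR values of these 6 lay between 0.00718 and 0.0308. With the culture as a block, which uses that both fractions of a culture come from 1 lysate, 8 members passed, Trp53 and Trp53inp1 being added, against 53.7% of all genes.

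Most of these calls were lost when N6L culture 2 or 3 was left out, and the reason was not tested. Without N6L culture 2, 0 of 10 members passed (8.22% of all genes), and without N6L culture 3, 1 member did (Ccng1, 11.7% of all genes). Mdm2 shows the spread, with log2 ratios of -0.33, -0.68 and -1.47 in N6L cultures 1, 2 and 3 and of -0.05, -0.20 and -0.22 in NT cultures 1, 2 and 4. Phlda3 went the other way, with 0.46, 0.85 and 1.53 in N6L and 0.16, 0.43 and 0.33 in NT. In both genes culture 3 lay farthest from the NT values. Zmat3 stayed between -0.01 and 0.05 in all 6 cultures.

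The ratios also moved with the composition of the transcripts. Across 13867 genes with an annotated transcript, the N6L log2 ratio had a Pearson correlation of 0.51 with GC content and of -0.55 with log2 length. For the NT log2 ratio these correlations were 0.41 and -0.36, so the relation was also present without N6L. These are descriptions over genes that share their libraries and are not independent. Among the members, the 4 with the highest GC content, Phlda3 (62.6%), Gdf15 (61.3%), Cdkn1a (54.4%) and Trp53 (53.3%), had N6L ratios above 0, from 0.35 to 1.01. Zmat3 (47.6%) was at 0.02, and the other 5, with 38.8% to 49.8% GC, were negative. After an offset for length and GC content in each library, 2 members passed in place of 6, against 20.1% of all genes. Mdm2 remained lower in polysomes (log2 -0.62 ± 0.18 SE, FDR = 0.0293 by edgeR). Zmat3, a long transcript of 7797 bases, was now higher (0.83 ± 0.15 SE, FDR = 0.00553), and the values of Phlda3, Gdf15 and Cdkn1a came down to 0.25, 0.07 and 0.11. Mdm4, with a transcript of 7105 bases, changed sign to 0.33 (FDR = 0.0682), and Trp53inp1 went from -0.80 to 0.13 (FDR = 0.766). With the offset and the culture as a block together, 3 members passed, against 36.3% of all genes: Mdm2 (-0.63), Zmat3 (0.81) and Mdm4, which was then called in the opposite direction, higher in polysomes (0.32 ± 0.09 SE, FDR = 0.0234 by edgeR).

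**Figure D3:**
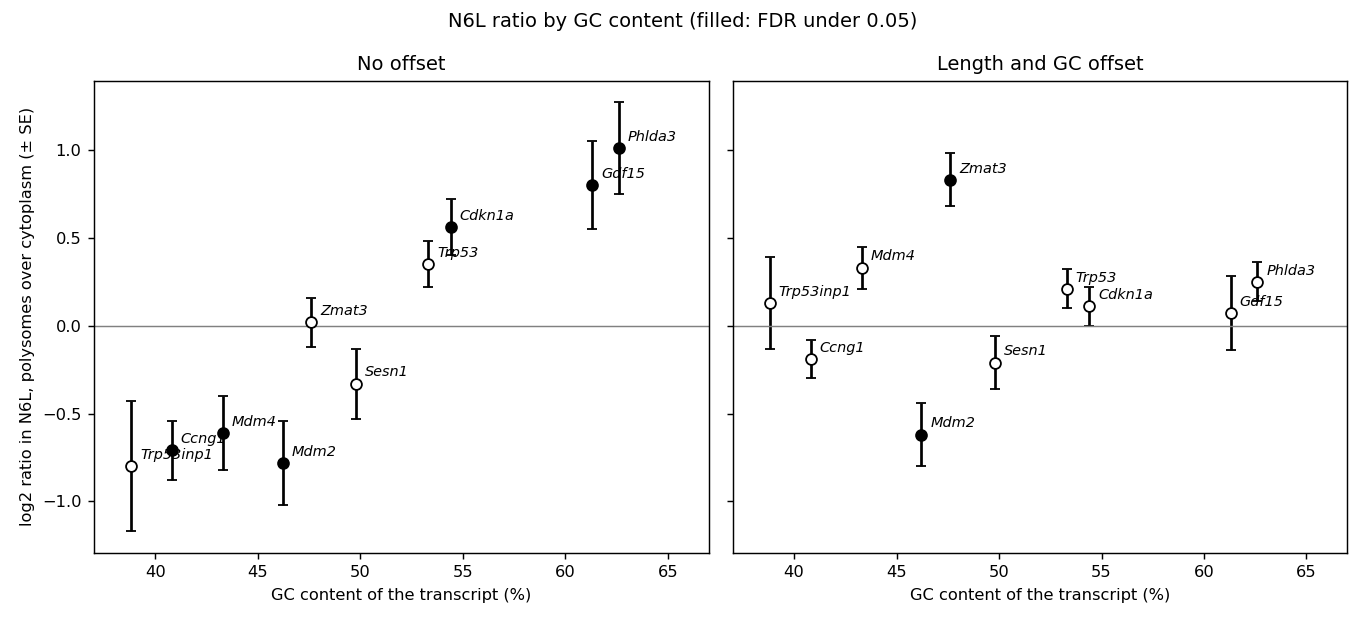
Log2 ratio of polysomes over cytoplasm in N6L-treated cells (vertical axis, with its standard error, n = 3 cultures) against the GC content of the transcript in percent, for the 10 genes, without an offset on the left and with the length and GC offset on the right. Filled points passed an FDR of 0.05, 6 genes on the left and 2, Mdm2 and Zmat3, on the right.

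The translational index is the N6L ratio minus the NT ratio on the log2 scale. It asked whether the engagement with polysomes, relative to other mRNAs, changed under treatment. In edgeR 0 of 10 members and 0% of all genes passed, and DESeq2 called 0 members as well. An unadjusted p under 0.05 was found for 1074 genes and for 1 member, Gdf15, whose index was 0.88 ± 0.35 (SE, FDR = 0.555). Its ratios were -0.22, 0.31 and -0.33 in NT and 0.22, 0.91 and 1.09 in N6L, so that NT culture 2 lay above N6L culture 1.

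Ratios did not overlap between treatments for 6 of 10 members, against 29.7% of all genes. Trp53 was higher in N6L, with 0.13, 0.46 and 0.47 against -0.15, 0.09 and 0.04 (index 0.36 ± 0.19 SE), and so was Phlda3 (0.70 ± 0.37). Mdm2 (-0.62 ± 0.34), Sesn1 (-0.55 ± 0.28), Mdm4 (-0.38 ± 0.29) and Trp53inp1 (-0.31 ± 0.52) were lower. For Sesn1 the ratios were 0.30, 0.24 and 0.10 in NT and 0.02, -0.29 and -0.78 in N6L. FDR values of these 6 were 0.555 to 0.797. The SE and FDR values of the index come from a fit that does not use the pairing of the 2 fractions of a culture. A fit with the culture as a block also called 0 members and 0 genes. For Trp53inp1 the SE was 0.37 with the length and GC offset, and 0.13 with the offset and the block. With the offset the index of Mdm2 was -0.53, that of Sesn1 -0.44 and that of Trp53 0.28, whereas Phlda3 was at 0.16 and Mdm4 and Trp53inp1 changed sign to 0.17 and 0.06. Cdkn1a (0.34), Ccng1 (-0.29) and Zmat3 (0) had ratios that overlapped between treatments.

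**Figure D4:**
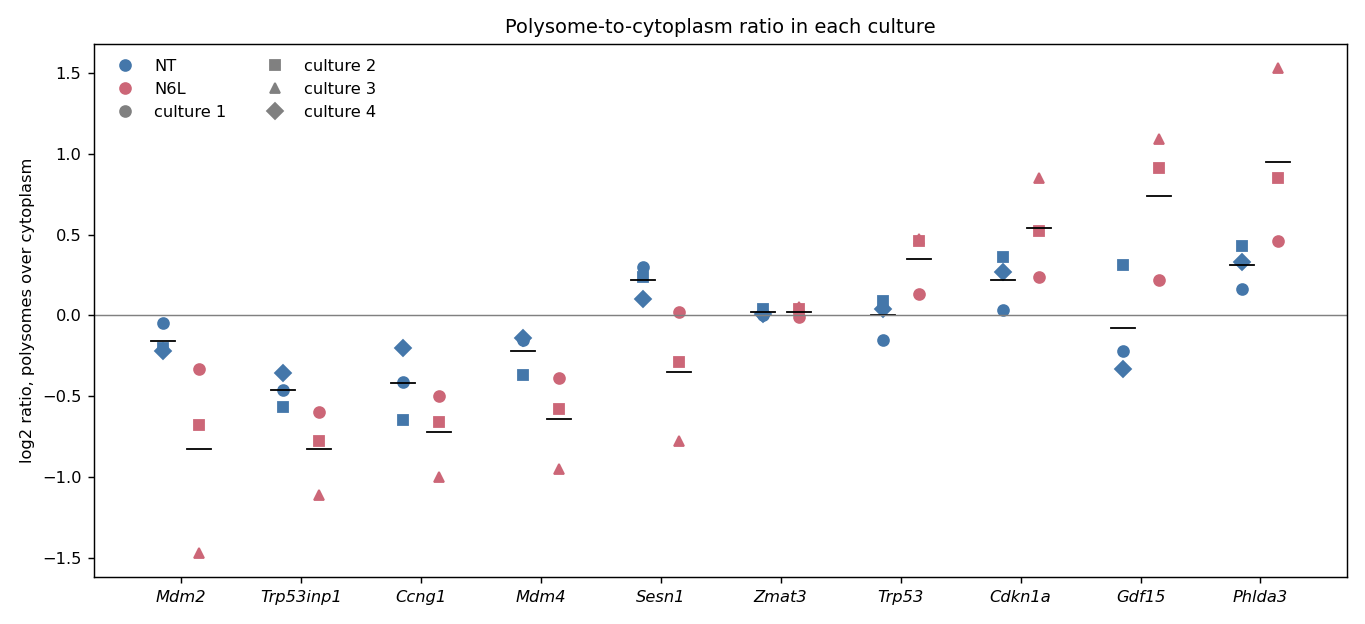
Log2 ratio of polysomal over cytoplasmic CPM (vertical axis) of the 10 genes in each of the 3 NT (blue) and 3 N6L (red) cultures, with symbols for culture numbers and black lines for means. N6L culture 3 has the lowest ratio of Mdm2 (-1.47) and the highest of Phlda3 (1.53), and the ratios of Zmat3 lie near 0 in all cultures.

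Over the 12 libraries, the genes with the profile most like that of Trp53, among 8958 with a mean of at least 10 CPM, were Gm6472 (Pearson r = 0.940), Gm10260 (0.932) and Rps15a (0.919) on the log2 CPM scale. Gm6472 is annotated as a processed pseudogene, so reads shared with its parent gene make its count uncertain. Mdm2 was most like Cttnbp2nl (0.993), Wdr7 (0.991) and Tbc1d23 (0.991), and Cdkn1a most like Tnfrsf1a (0.987), Zfp513 (0.980) and Ctdsp1 (0.978). These are descriptions, since the libraries fall into 4 groups and share cultures.

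Other genes of the pathway were taken from lists by role. Their counts of called genes stand against 28.3% of all genes in the cytoplasm (14.5% higher, 13.8% lower) and 9.67% in the polysomes (6.01% higher, 3.66% lower). Leaving out N6L culture 2 brought these shares over all genes to 9.24% and 1.04%. They were 28.7% and 7.77% when N6L culture 3 was omitted, 33.1% and 14.6% with DESeq2, and 30.6% and 20% with the length and GC offset. Among 17 regulators upstream of p53, 7 rose and 3 fell in the cytoplasm (median log2 0.30, against 0.04 over all genes), and 1 fell in the polysomes (median -0.17, against 0 over all genes). The kinases Atm (log2 1.34) and Hipk2 (1.22) and the acetyltransferase Ep300 (1.34) rose in the cytoplasm. The Cdkn2a locus encodes p16 as well as the Mdm2 inhibitor p19Arf, and counts per gene do not separate the 2. Cdkn2a fell by 0.89 ± 0.20 (SE, FDR = 0.00694 by edgeR), from 178 to 221 CPM in NT to 101 to 112 CPM in N6L cytoplasm. In the polysomes it stood at a log2 difference of -0.23 (FDR = 0.488). Brd7, a bromodomain cofactor of p53, fell by 0.40 in the cytoplasm and by 0.88 in the polysomes. Without N6L culture 2 the cytoplasmic calls of this list came to 1 higher and 1 lower. The median with the length and GC offset was -0.12, and DESeq2 called 1 higher and 2 lower in the polysomes, against 1 higher and 4 lower with the offset. Wrap53, the antisense neighbour of Trp53, did not pass (log2 -0.34, FDR = 0.184), and the gene bodies of the pair do not overlap in GENCODE vM21.

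The list of 19 ribosomal and nucleolar proteins that bind Mdm2 or relay nucleolar stress held 15 genes that fell in the cytoplasm, where 13.8% of all genes fell, and 0 that rose, with a median log2 of -0.87. All 15 were ribosomal protein genes, and whether such genes outside the list fell alike is not reported here. The other 4, which are not ribosomal protein genes, did not pass. They were Npm1 (log2 -0.44, FDR = 0.21), Nop53 (-0.41, FDR = 0.106), Gnl3 (-0.05) and Pml. Pml was the 1 gene of the list above 0 (log2 0.39, FDR = 0.0556). These 4 were named after their values were seen. DESeq2 called 15 lower and 1 higher. Rps27l (-1.21), Rps20 (-1.17) and Rpl11 (-1.10) fell most. Rpl11 went from 983 to 1460 CPM in NT to 504 to 587 CPM in N6L cytoplasm, and Rpl5, which forms the 5S particle that captures Mdm2 together with Rpl11, fell by 0.46 ± 0.15 (SE, FDR = 0.0385 by edgeR). In the polysomes 0 of 19 passed in edgeR, where 5 had an unadjusted p under 0.05, as did 3684 of all 13889 genes. DESeq2 called 1 lower there, and the median was -0.29. There Rpl11 was at -0.46 (FDR = 0.227) and Rpl5 at -0.28 (FDR = 0.27). With the length and GC offset 13 fell in the cytoplasm with a median of -0.54, and with library totals alone 14 fell and 1 rose. Ribosomal protein genes have many near-identical pseudogenes, so their counts depend on how shared reads were assigned.

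Further p53 targets went in both directions. Of 12 arrest and checkpoint targets, 4 rose and 2 fell in the cytoplasm (28.3% of all genes passed there), and 3 rose and 1 fell in the polysomes (9.67% of all genes). Btg2, an antiproliferative cofactor of mRNA deadenylation, went from 40.3 to 90.4 CPM in NT to 305 to 309 CPM in N6L cytoplasm (log2 2.31 ± 0.31 SE, FDR = 0.000789 by edgeR) and rose by 2.46 in the polysomes. Gadd45b rose by 1.33 and 1.80 in the 2 fractions and the kinase Plk3 by 0.57 and 0.87, and Plk2 rose by 0.93 in the cytoplasm. Gadd45a, also a stress sensor of the Gadd45 family, fell from 253 to 315 CPM to 130 to 137 CPM in the cytoplasm (log2 -1.13) and by 1.01 in the polysomes. Psrc1 fell by 0.52 in the cytoplasm. There, 2 rose and 1 fell when N6L culture 2 was left out, against 9.24% of all genes.

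Among 15 apoptosis targets 3 rose and 4 fell in the cytoplasm (median -0.22, with 28.3% of all genes called), and 2 rose and 1 fell in the polysomes (median 0.12, with 9.67% of all genes called). The death receptor Tnfrsf10b rose by 1.26 and 1.19 on the log2 scale in cytoplasm and polysomes, and Pmaip1, the BH3-only protein Noxa, by 0.97 in the cytoplasm. Bax, the pore-forming effector, fell by 0.98 in the cytoplasm, from 125 to 161 CPM to 66.1 to 74.5 CPM, and Siva1 by 0.95. Perp, a desmosomal p53 target, fell by 0.88 in the cytoplasm and 0.63 in the polysomes. The third riser, Dram1, had a mean of 0.464 CPM and was named after its value was seen. Without N6L culture 2, 1 rose and 2 fell in the cytoplasm, and 1 rose in the polysomes.

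Of 10 repair targets, the polymerases Polk (log2 0.97) and Polh (0.92) and the damage sensor Xpc (0.55) rose in the cytoplasm, while Rps27l and Pcna (-0.51) fell, against 14.5% and 13.8% of all genes. In the polysomes 0 of the 10 passed in edgeR and DESeq2, and 2 had an unadjusted edgeR p under 0.05, as did 3684 of all 13889 genes. Leaving out N6L culture 2 left 0 higher and 1 lower in the cytoplasm. Among 18 targets of metabolism, mTOR control and matrix, 6 rose and 1 fell in the cytoplasm and 8 rose in the polysomes, where 14.5% and 6.01% of all genes rose, with medians of 0.34 and 0.39. The matrix protein Thbs1 rose by 2.10 and 1.74 and the phosphatidate phosphatase Lpin1 by 1.96 and 1.20. Pltp rose by 1.34 in the polysomes. Sesn2, the paralog of Sesn1, fell by 0.63 in the cytoplasm (FDR = 0.0276 by edgeR). Without N6L culture 2, 3 of the list rose in the cytoplasm and 1 in the polysomes, and without N6L culture 3, 5 rose in the polysomes.

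Of 8 feedback genes, 1 rose in the cytoplasm, where 14.5% of all genes did. It was Rnf144b, at a mean of 0.429 CPM and named after its value was seen. In the polysomes 0 passed in edgeR and DESeq2, and 1 had an unadjusted edgeR p under 0.05, as did 3684 of all 13889 genes. Trp53cor1, the p53-induced lincRNA-p21, was at a mean of 1.47 CPM with a log2 difference of 0.13 in the cytoplasm (FDR = 0.766). The 20 cell cycle genes repressed through p21 and the DREAM complex held 5 that fell in the cytoplasm (median -0.30) and 1 in the polysomes (median -0.34), where 13.8% and 3.66% of all genes fell. In the cytoplasm 8 of the 20 had a log2 fold change above 0, of which 0 passed, and in the polysomes 0 were above 0. Birc5, encoding survivin, fell by 0.86 and 0.69, and Cenpa by 0.71 and Cdk1 by 0.67 in the cytoplasm. When N6L culture 2 was left out, 3 fell in the cytoplasm and 0 in the polysomes, where DESeq2 called 6 and the length and GC offset 7. The p53 relatives Trp63 and Trp73 did not reach the filter on low counts.

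**Figure D5:**
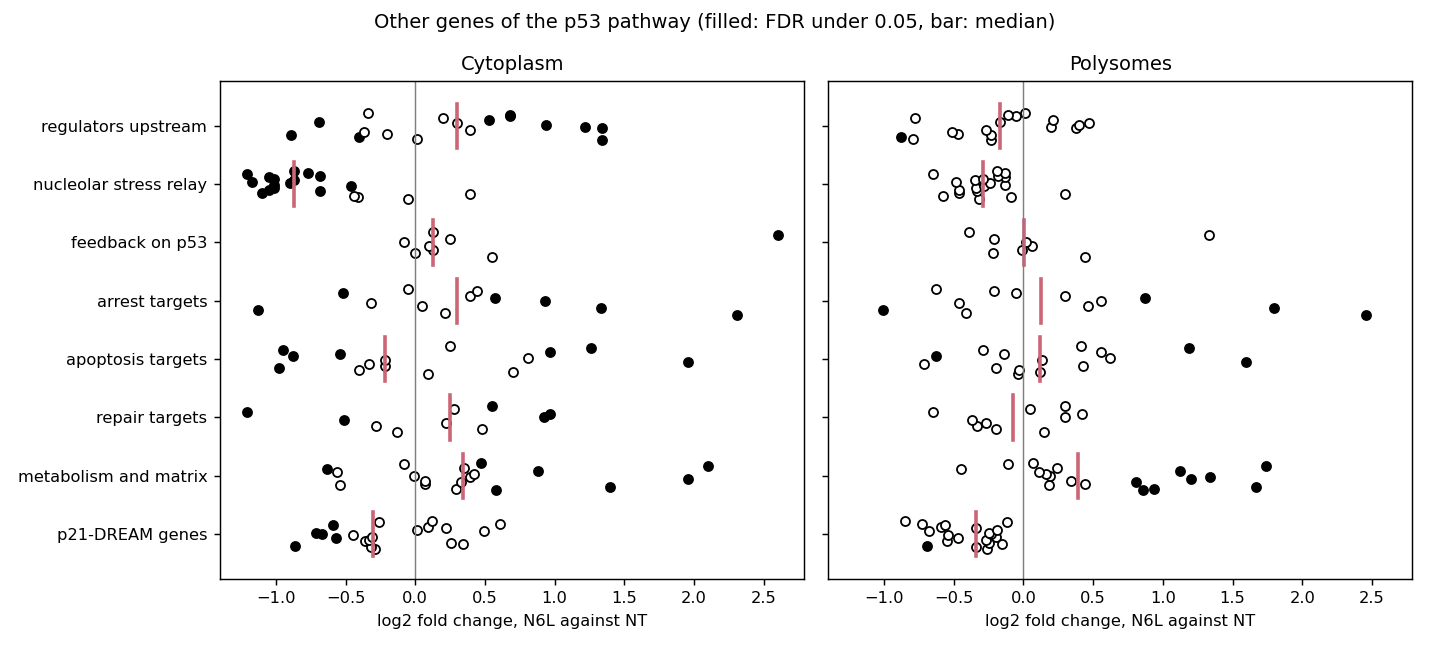
Log2 fold change of N6L against NT (horizontal axis) for the tested genes of 8 lists of the p53 pathway, in the cytoplasm on the left and the polysomes on the right. Each point is 1 gene, filled where its FDR was under 0.05, and the red bar is the median of the list. The nucleolar stress list has a median of -0.87 in the cytoplasm and -0.29 in the polysomes.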

How the data were processed

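Poly(A)-selected RNA of cytoplasmic lysates and pooled polysomal sucrose-gradient fractions was sequenced with a stranded kit. Alignment by the authors used STAR on mm10, and HTSeq 0.5.3 gave the deposited values, raw counts per gene without normalization. Neither the annotation release nor the strand setting is given in the sources used here. Cdkn1a shares exonic bases with a gene on the opposite strand, so reads of the pair cannot be told apart without the strand. Each of the 12 libraries was deposited as 4 technical replicates, and these were added up, as chi-square over its degrees of freedom was 1.02 to 1.04 among them. For 3 of them (N6L cytoplasm, culture 2) the labels disagree on the culture number. Symbols, coordinates, length and GC content came from GENCODE vM21 (GRCm38, the same build), which holds 50376 of the 50600 genes listed. Promoter sequences came from RefSeq (GRCm38.p6).

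Counts were filtered (filterByExpr), scaled by TMM and tested in R 4.3.3 with edgeR 4.0.16 (quasi-likelihood, 1 mean for each of 4 groups, all 12 libraries, Benjamini-Hochberg over all genes, FDR limit 0.05). The common biological coefficient of variation was 0.197. DESeq2 1.42.0, used by the authors in another version, was an alternative, beside other scalings, no filter, blocks, fits of 2 groups, an offset for length and GC content, and each culture left out. The scripts were tested on simulated data. Ratios per culture are differences of log2 CPM (prior count 2). Both fractions of a culture were taken from 1 lysate and so form a pair. Within pairs, deviations from the group mean had correlations of 0.0368 to 0.645. The members and lists were chosen with earlier results of these data known. Named were all members, Cdkn2a, Rpl5, Rpl11, Wrap53 and Trp53cor1, the 3 most similar profiles each for Trp53, Mdm2 and Cdkn1a, and from the lists up to 3 of the largest increases and decreases per fraction that passed with a mean of at least 1 CPM. Some genes that this rule names are not reported here. The counts of the lists under alternatives were added after seeing the data.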

Additional observations from a re-analysis of the deposited data

How the results depend on the processing

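Of the member values in the cytoplasm, the polysomes, the N6L ratio and the index recomputed under alternatives, 470 kept their direction and their side of the limit, 24 passed where they had not, 35 no longer passed and 41 changed sign. In the cytoplasm 3 members passed (28.3% of all genes), against 5 with RLE size factors (29.1%), with no filter (17%), with DESeq2 (33.1%) and with only the 2 groups compared (42.2%), 4 with the length and GC offset (30.6%), 6 with the replicate number as a block (34.1%), and 1 to 4 when each culture was left out (1 without N6L culture 2, 9.24%). In the polysomes 1 passed (9.67% of all genes), against 0 with RLE size factors (9.68%), library totals alone (10%) and only the 2 groups compared (2.46%), and 0 to 1 when each culture was left out. For the N6L ratio 6 passed (39.0% of all genes), against 2 with the length and GC offset (20.1%), 3 with the offset and the culture as a block (36.3%), and 0 to 7 when each culture was left out (0 without N6L culture 2, 8.22%, and 1 without culture 3, 11.7%). The counts of 0 for the NT ratio and the index were 0 in every alternative.

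Scaling by library totals alone shifted the cytoplasmic median over all genes from 0.04 to 0.19 (log2), and polysomal values of Trp53 and Phlda3 were 0.06 and the index and N6L ratio of Zmat3 -0.05 and -0.11. Zmat3 in the cytoplasm was at -0.02 with RLE size factors, DESeq2 and the conflicting technical replicates left out, at -0.03 with only the 2 groups compared and at -0.52 with the offset. Its polysomal value was 0 (just below) with RLE size factors, and its index -0.03 with no filter. Phlda3 in the polysomes was at 0 (just above) with only the 2 groups compared. The offset also turned Mdm4 (-0.29) and Ccng1 (-0.13) in the cytoplasm, Gdf15 (-0.15) in the polysomes, the N6L ratios of Mdm4 (0.33, and 0.32 with the culture block) and Trp53inp1 (0.13 in both), the NT ratios of Mdm4 (from -0.23 to 0.16) and Trp53inp1 (from -0.49 to 0.06), and the index of Mdm4 (0.17, with the block 0.16) and of Trp53inp1 (0.06, with the block 0.05). Leaving out each culture gave cytoplasmic ranges of -0.03 to 0.09 (Cdkn1a), -0.09 to 0.11 (Ccng1), -0.06 to 0.06 (Zmat3) and 0 to 0.33 (Mdm4). The polysomal ranges were -0.37 to 0.25 (Phlda3), -0.02 to 0.06 (Zmat3), -0.31 to 0.25 (Gdf15) and -0.04 to 0 (Trp53), and the index of Zmat3 ranged from -0.01 to 0.04. The cause of these differences was not tested.

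The labels do not say whether NT and N6L cultures of the same number belong together. Deviations of same-numbered libraries correlated by 0.00756 to 0.296. This range overlaps that of the 2 fractions of 1 lysate (0.0368 to 0.645), so these correlations cannot decide it. With the number as a block, which joins numbers 1 and 2, Cdkn1a in the cytoplasm was at -0.08, Phlda3 and Gdf15 in the polysomes were at 0.02 and -0.29, and 1 member passed in the polysomes. With the culture as a block, 8 members passed for the N6L ratio (53.7% of all genes). Sesn1, at 97 to 698 counts in a library, had the lowest depth among the members.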
